A study of Mus musculus with 6 samples.

Results

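The 10 genes described here encode chaperones and stress regulators of the endoplasmic reticulum (ER), and they were chosen by symbol as Hspa5, Hsp90b1, Pdia3, Pdia4, Pdia6, Calr, Canx, Xbp1, Dnajb9 and Herpud1. Each symbol matched 1 row, so they make up 10 of the 53733 named rows of the count table, and all 10 were among the 13652 rows that passed a filter on low counts. They were measured in an acute myeloid leukaemia line made from mouse foetal liver cells, which carries MLL-AF9 with a luciferase from a constitutive retroviral vector and FLT3-ITD with DsRED from a doxycycline-inducible one. NSG mice, which lack mature lymphocytes but keep their own myeloid and erythroid cells, were injected with the line through the tail vein and kept on doxycycline for 96 h. In the OFF group of 3 mice doxycycline was then withdrawn for 48 h, so that FLT3-ITD was depleted. In the ON group of 3 mice doxycycline was continued, and MLL-AF9 was expressed in both groups. Living leukaemic cells were sorted out of the marrow and 1 library was made per mouse; setting OFF against ON asks which transcripts differ once FLT3-ITD is depleted in the animal. The labels do not say whether the line is 1 clone or which markers defined the sort, and they give no age or sex of the mice.

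Secretory and membrane proteins fold in the ER with the help of chaperones that bind exposed hydrophobic stretches (BiP and GRP94), lectin chaperones that bind trimmed sugars (calnexin and calreticulin) and protein disulfide isomerases. When unfolded proteins accumulate, the sensors IRE1, PERK and ATF6 start the unfolded protein response (UPR), in which spliced XBP1 and cleaved ATF6 raise chaperone and degradation genes and PERK slows translation and favours ATF4. Myeloid precursors make large amounts of granule proteins that pass through this compartment, and XBP1 is known for its part in secretory cells.

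The promoter sequences are shown because ATF6 and XBP1 are known to act through the ER stress element, the letters CCAAT, 9 bases and CCACG, found beside chaperone genes. The 250 bases before the start site of each gene, from RefSeq (GRCm38.p6), were searched on both strands for exact matches. The element was found in 5 of the 10 genes, against 37 of all 32851 promoters in that table (0.113%). Hsp90b1 held it on both strands. A second ER stress element, ATTGG, 1 base and CCACG, was found in Herpud1 and in 10 promoters in all (0.0304%). Exact matches were not found before Pdia3, Pdia4, Xbp1 and Dnajb9, which says only that these letters are not in that window. Each element is printed 5′ to 3′ in its own orientation with 5 flanking bases, and the capitals mark its fixed letters.
Hspa5, chr2:34772020-34772048, plus strand: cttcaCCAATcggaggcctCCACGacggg
Hsp90b1 upper, chr10:86705633-86705661, minus strand: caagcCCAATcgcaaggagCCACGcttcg
Hsp90b1 lower, chr10:86705528-86705556, plus strand: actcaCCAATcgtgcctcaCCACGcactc
Pdia6, chr12:17266486-17266514, plus strand: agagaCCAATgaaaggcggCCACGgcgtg
Calr, chr8:84847070-84847098, plus strand: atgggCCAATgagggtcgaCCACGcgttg
Canx, chr11:50325795-50325823, minus strand: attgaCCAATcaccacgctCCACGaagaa
Herpud1 (second element), chr8:94386372-94386392, plus strand: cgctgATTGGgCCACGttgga

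Counted from the RefSeq start site, the elements began 65 bases before it in Hspa5, 98 in Pdia6, 145 in Canx and 162 in Calr, and the second element began 52 bases before it in Herpud1. The gene intervals given with the values below are from GENCODE, whose outermost starts differ from the RefSeq ones in all of these genes but Canx. In Hspa5 the GENCODE interval begins further upstream, so that the element lies inside it, and in Pdia6 and Hsp90b1 the GENCODE start is likewise closer to the elements. In Hsp90b1 both elements lay in the 134 bases of chr10:86705528-86705661 (minus strand, the strand of the gene), with 86 bases between them and in opposite orientations, as the capitals show.
Hsp90b1 upstream: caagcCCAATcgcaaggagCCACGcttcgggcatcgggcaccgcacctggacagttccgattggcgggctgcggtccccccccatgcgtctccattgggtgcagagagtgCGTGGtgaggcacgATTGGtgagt

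The 6 libraries held between 8335234 and 9316361 counts in named rows, so that 1 count was worth 0.11 to 0.124 CPM (counts scaled to a common library size, with TMM factors). A principal component of log2 CPM that held 67.6% of the variance parted the groups, and on a second (13.6%) OFF replicate 3 scored -29.3 while OFF replicates 1 and 2 scored 23.9 and 14.4. The mouse Flt3 row stood at 5.43, 5.89 and 9.10 CPM in OFF and at 5.47, 5.79 and 5.69 CPM in ON. This row reads the end of the mouse gene's own transcript, so it says nothing of the transgene, which was not analysed here. All 6 markers fixed for the leukaemic line were detected, among them Hoxa9 at 332 to 360 CPM in OFF and 323 to 334 CPM in ON, and Mpo at 657 to 931 CPM in OFF and 290 to 319 CPM in ON. Together they summed to 1485 to 1789 CPM in OFF and 987 to 1058 CPM in ON, with 3 of 6 called higher. The 8 markers listed for mature neutrophils summed to 3463, 5470 and 8138 CPM in OFF replicates 1 to 3 and to 2339 to 2498 CPM in ON. Of the 8, 7 were called higher. Camp gave most of the sum, at 2453, 4056 and 6496.5 CPM in OFF and 1556 to 1655 CPM in ON. Cxcr2 stood at 26.7 to 37.0 CPM in OFF and 29.8 to 34.9 CPM in ON. The sum thus mostly reads Camp and is not a measure of the number of mature neutrophils. The 8 erythroid markers summed to 576 to 931 CPM in OFF and 150 to 211 CPM in ON, with 5 of 5 tested called higher. The 8 B lineage and plasma cell markers summed to 9.08 to 13.5 CPM in OFF and 2.73 to 5.81 CPM in ON. Ighm, the 1 of them tested, was called higher, at 73, 90 and 108 counts in OFF and 45, 17 and 17 in ON. Jchain and Mzb1, genes of antibody-secreting cells, had at most 3 counts in any library. Markers of T and NK cells summed to at most 3.18 CPM and those of megakaryocytes to at most 2.63 CPM. Stroma and endothelium markers summed to 7.89 to 11.4 CPM in OFF and 6.80 to 10.2 CPM in ON, with Lepr at 0 in all 6 libraries. The part of these markers in the results below was not tested. In bulk samples of this kind, fewer cells that express a gene and less of its RNA per cell cannot be told apart.

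After withdrawal of doxycycline, 2 of the 10 genes were lower and none was higher: Hspa5, which encodes BiP, was 1.49-fold lower, and Xbp1, the transcription factor of the IRE1 branch, was 1.37-fold lower. The other 8 genes did not pass an adjusted p of 0.05. Across all tested rows 17.5% were called lower and 17.3% higher in OFF by edgeR's quasi-likelihood test, so that the count of 2 in 10 was near the background. The median log2 fold change (OFF minus ON) of the 10 genes was -0.24, beside 0.00 for all tested rows, and 9 of the 10 values were negative. In 4 genes all OFF libraries lay below all ON libraries, and in none did all lie above, while the shares of all tested rows were 24.5% and 23.8%. The 10 genes together took 0.318%, 0.297% and 0.268% of the counts in OFF replicates 1 to 3 and 0.374%, 0.359% and 0.348% in ON.

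Hspa5 is the Hsp70 chaperone of the ER lumen, which also holds the UPR sensors inactive. The gene lies at chr2:34771970-34777547 on the plus strand (GRCm38). It stood at 806, 699.7 and 646 CPM in OFF, against 1119, 1060.4 and 1032 CPM in ON. Every OFF library was thus well below every ON library. The log2 fold change was -0.58 (SE 0.10, 95% interval -0.80 to -0.36, adjusted p = 6.12e-04 by edgeR). The call held under all 15 other settings, with values between -0.67 and -0.48 and adjusted p between 9.97e-07 and 0.0243. Without OFF replicate 3, the library that stood apart, the value was -0.50.

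Hsp90b1 encodes GRP94, the Hsp90 chaperone of the ER, which folds integrins and Toll-like receptors among other clients. The gene lies at chr10:86690209-86705509 on the minus strand. It stood at 743, 770.2 and 558 CPM in OFF, against 833, 737 and 766 CPM in ON. The groups overlapped, and the lowest library was OFF replicate 3. The log2 fold change of -0.17 (95% interval -0.43 to 0.08) did not pass (adjusted p = 0.285 by edgeR), and without OFF replicate 3 it was -0.04. Its annotated exons share 415 bases with the pseudogene 1810014B01Rik on the opposite strand, and 133 bases with Gm25745 and 84 bases with Gm15344 on the same strand. The 1810014B01Rik row stood at 84.1, 74.2 and 35.5 CPM in OFF, against 81.2, 65.9 and 74.1 CPM in ON, so it too was lowest in OFF replicate 3. Gm25745 and Gm15344 were likewise lowest there, at 3.29 and 7.13 CPM. None of these rows was called, at -0.19 for 1810014B01Rik, -0.30 for Gm25745 and -0.02 for Gm15344 on the log2 scale (adjusted p = 0.647, 0.537 and 0.971 by edgeR), and whether the counting used strand is not given in the sources used here.

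**Figure D1:**
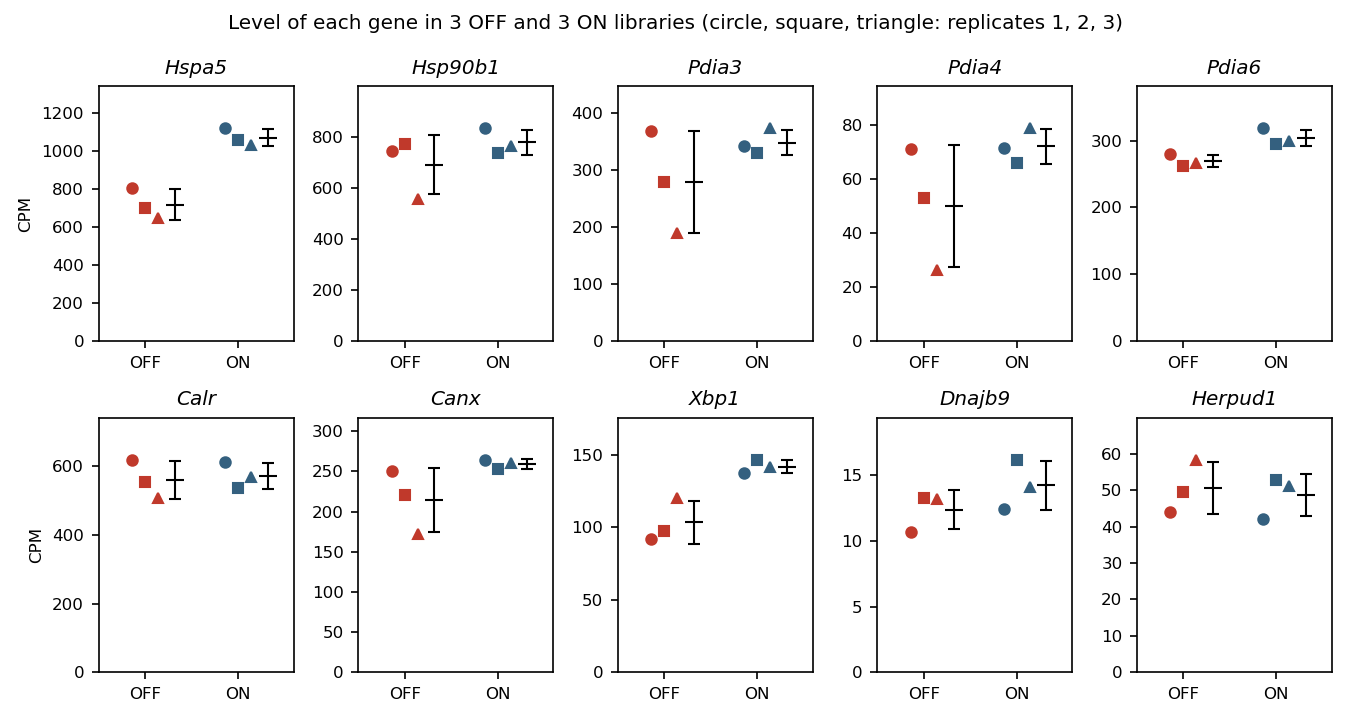
Level of each of the 10 genes in CPM (linear axes from 0) in the 3 OFF libraries (red, left) and 3 ON libraries (blue, right); circles, squares and triangles are replicates 1, 2 and 3, and black bars give mean and SD. The groups part clearly in Hspa5 and Xbp1, and OFF replicate 3 is far below the other libraries in Pdia3 and Pdia4.

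Disulfide isomerases form and rearrange disulfide bonds in folding proteins, and none of the 3 measured was called. The OFF libraries were far apart in Pdia3 and Pdia4 and close together in Pdia6. Pdia3 works with the lectin chaperones on glycoproteins and also serves the loading of MHC class I. It lies at chr2:121413775-121438687 on the plus strand and stood at 368, 279 and 189.7 CPM in OFF, against 342, 329 and 373 CPM in ON. OFF replicate 1 lay within the range of ON, whereas OFF replicates 2 and 3 lay below it. The log2 fold change was -0.32 (95% interval -0.75 to 0.11, adjusted p = 0.235 by edgeR). It passed without OFF replicate 1 (-0.57, adjusted p = 0.00288) and when rows of low count were kept (adjusted p = 0.0184), and was -0.10 without OFF replicate 3.

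Pdia4, an isomerase with additional thioredoxin-like domains that is found in complexes with BiP, lies at chr6:47796141-47813430 on the minus strand. It stood at 71.1, 53.1 and 26.2 CPM in OFF, against 71.5, 66.0 and 78.7 CPM in ON. OFF replicate 1 was level with ON, and OFF replicate 3 was far below every other library. The coefficient of variation was 45.1% in OFF and 8.83% in ON, the widest spread in OFF of the 10 genes. The log2 fold change of -0.52 had an SE of 0.31 (95% interval -1.26 to 0.21, adjusted p = 0.243 by edgeR), and ranged from -0.86 without OFF replicate 1 to -0.21 without OFF replicate 3. Pdia6, an isomerase that binds IRE1 and PERK as well as BiP, lies at chr12:17266545-17284770 on the plus strand. It stood at 279.9, 262 and 266 CPM in OFF, against 318, 295 and 299 CPM in ON. All OFF libraries were below all ON libraries by a small step. The change was not called (log2 fold change -0.17, 95% interval -0.38 to 0.03, adjusted p = 0.179 by edgeR).

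The lectin chaperones calreticulin and calnexin retain glycoproteins in the ER until they are folded, and calreticulin also binds calcium. Calr lies at chr8:84841850-84846934 on the minus strand and stood at 617, 553 and 508 CPM in OFF, against 610.4, 536 and 568 CPM in ON. The ranges overlapped almost wholly, and the log2 fold change was -0.03 (95% interval -0.25 to 0.19, adjusted p = 0.850 by edgeR). The sign differed between settings. Canx lies at chr11:50293961-50325673 on the minus strand and stood at 249.96, 221 and 172 CPM in OFF, against 264, 252 and 261 CPM in ON. All OFF values were below all ON values, OFF replicate 1 only just so. The log2 fold change of -0.27 (95% interval -0.54 to -0.01) did not pass after adjustment (adjusted p = 0.106 by edgeR). It passed without OFF replicate 1 (-0.40, adjusted p = 0.0103) and was -0.13 without OFF replicate 3.

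Xbp1 encodes the transcription factor whose mRNA IRE1 splices to give the active form, which raises chaperone, ER degradation and lipid genes. It lies at chr11:5520659-5525893 on the plus strand. Counts taken near 3′ ends do not separate the spliced from the unspliced mRNA, so the values are the sum of both. Xbp1 stood at 92.1, 97.6 and 120.3 CPM in OFF, against 137, 146 and 142 CPM in ON. All OFF libraries were below all ON libraries, and here OFF replicate 3 was the highest of its group. The log2 fold change was -0.46 (SE 0.12, 95% interval -0.71 to -0.21, adjusted p = 0.00715 by edgeR). The call held under all 15 other settings, with values between -0.58 and -0.38 and adjusted p between 3.11e-05 and 0.048, and it was -0.58 without OFF replicate 3.

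The last pair serves control and clearance of the UPR. Dnajb9, also called ERdj4, is a BiP cochaperone that helps to keep IRE1 inactive and is itself a target of XBP1. It lies at chr12:44205559-44210326 on the minus strand and stood at 10.6, 13.2 and 13.2 CPM in OFF, against 12.4, 16.1 and 14.1 CPM in ON, from 96 to 142 counts per library. The groups overlapped (log2 fold change -0.20, 95% interval -0.54 to 0.13, adjusted p = 0.342 by edgeR). The last 500 bases of its transcripts match the processed pseudogene Gm6568 over 156 bases at 98.1% identity, but that row held 12 counts over the 6 libraries. No other row matched the 3′ end of any of the 10 genes over at least 100 bases at 90% identity. Herpud1, a membrane protein of the complex that sends misfolded proteins to the proteasome, lies at chr8:94386438-94395377 on the plus strand. It stood at 44.0, 49.5 and 58.2 CPM in OFF, against 42.1, 52.8 and 51.1 CPM in ON. It was the 1 gene of the 10 with a positive value (log2 fold change 0.06, 95% interval -0.22 to 0.33, adjusted p = 0.777 by edgeR), and the sign turned without OFF replicate 3 (-0.05) or ON replicate 1 (-0.04).

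**Figure D2:**
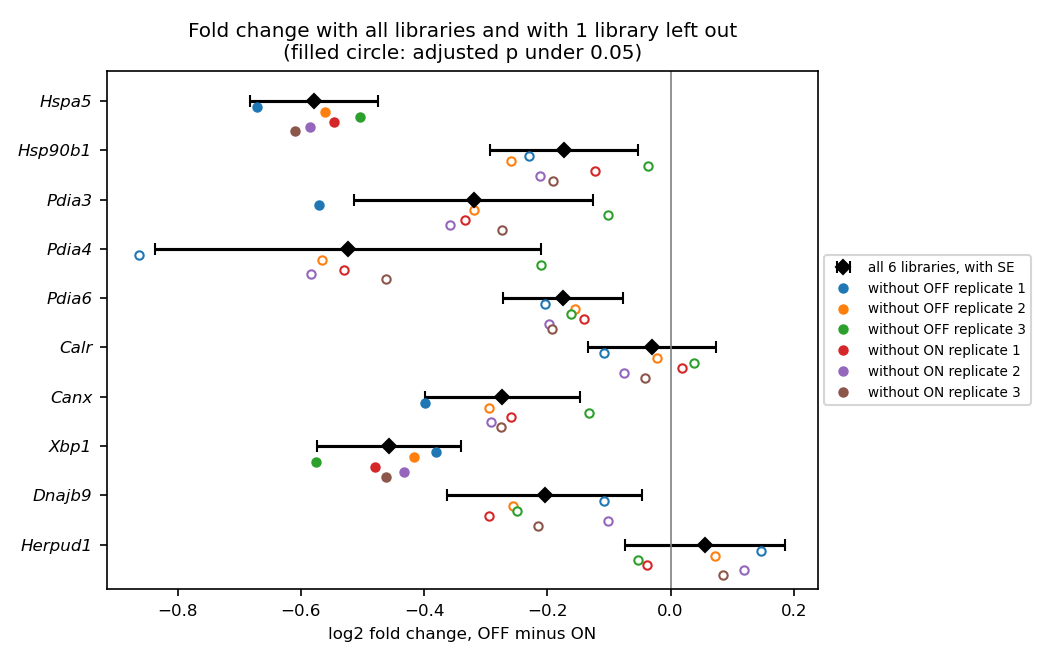
Log2 fold change (OFF minus ON) of the 10 genes with all 6 libraries (black diamond, bars are SE) and with each library left out in turn (coloured circles, filled where the adjusted p is under 0.05). Hspa5 and Xbp1 are filled throughout, whereas Pdia3 and Canx are filled only without OFF replicate 1 and Pdia4 ranges from -0.86 to -0.21.

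The OFF libraries did not treat these genes alike. In 6 of the 10 genes, namely Hspa5, Hsp90b1, Pdia3, Pdia4, Calr and Canx, OFF replicate 3 was the lowest OFF library, and in Xbp1 and Herpud1 it was the highest. Relative to the mean of OFF replicates 1 and 2, its log2 CPM differed by -1.22 in Pdia4, -0.76 in Pdia3, -0.45 in Canx, -0.44 in Hsp90b1, 0.34 in Xbp1 and 0.32 in Herpud1. The neutrophil marker sum, most of it Camp, was highest in that same library and lowest, among OFF, in replicate 1. In OFF replicate 1, 6 of the 10 genes were highest among OFF, namely Hspa5, Pdia3, Pdia4, Pdia6, Calr and Canx. Hspa5, Pdia3, Pdia4, Calr and Canx were lower in each OFF library the higher its marker sum was, and Xbp1 and Herpud1 were higher. With 3 OFF libraries many genes can follow such an order in either direction without any link to the markers. The shares of all tested rows that are lowest, highest or ordered in this way were not computed, so these counts show no link. The share of counts in rows of the ribosomal RNA locus was 10.1% in OFF replicate 3, 18% and 17.2% in OFF replicates 1 and 2, and 11.3% to 16.2% in ON. Whether either moved the chaperone values was not tested.

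Ratios between genes of the same library do not depend on the scaling of libraries, and Hspa5 was set against each of the other 9 genes. In 5 of the 9, namely Calr, Herpud1, Pdia6, Hsp90b1 and Canx, the log2 ratio was lower in every OFF library than in every ON library. Hspa5 itself parted the groups, so its ratio to a gene of little change can part them too. The share of all tested rows for which this holds was not computed. The log2 ratio of Hspa5 to Calr was 0.34 to 0.38 in OFF and 0.86 to 0.98 in ON. The log2 ratio to Herpud1 was lower in OFF by 0.64 on average, with means of 3.83 in OFF and 4.47 in ON. The log2 ratios to Pdia3, Pdia4, Xbp1 and Dnajb9 overlapped between groups, with differences of -0.21, 0.05, -0.12 and -0.38. An exact two-sided permutation test of 3 against 3 mice cannot give a p below 0.1, which is what each of the 5 gave (0.18 after Benjamini-Hochberg adjustment over the 9 ratios), so that no ratio could pass.

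Among the sensors, proteases and transducers of the UPR, 5 of 14 genes were lower (35.7%) and 2 were higher (14.3%). The shares of all tested rows were 17.5% and 17.3%. The smallest p values were those of Atf4, Eif2s1 and Ppp1r15a. Atf4, the transcription factor favoured by phosphorylated eIF2, stood at 139, 128 and 111 CPM in OFF, against 364, 306 and 347 CPM in ON. The groups lay far apart (log2 fold change -1.43, adjusted p = 1.05e-06 by edgeR). Ppp1r15a, the phosphatase subunit that reverses the phosphorylation of eIF2, stood at 4.98, 1.89 and 2.63 CPM in OFF, against 12.3, 14.5 and 9.77 CPM in ON (-1.94, adjusted p = 1.72e-04). Eif2s1, the eIF2 subunit that PERK phosphorylates, averaged 55.9 ± 5.04 CPM in OFF and 107.7 ± 4.95 CPM in ON (SD, n = 3 each; -0.94, adjusted p = 1.87e-05 by edgeR). These 3 calls held under every setting in which they were tested. PERK itself (Eif2ak3) gave 0.14 and IRE1 (Ern1) 0.47 without passing (adjusted p = 0.598 and 0.0991 by edgeR).

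Both forms of ATF6 were measured, and they gave opposite signs. Atf6, the sensor that is cut in the Golgi to release a transcription factor, stood at 26.6, 33.4 and 33.8 CPM in OFF, against 23.1, 21.5 and 23.8 CPM in ON. Its log2 fold change was 0.46 (adjusted p = 0.0133 by edgeR), a call lost without OFF replicate 2, ON replicate 1 or ON replicate 2 (adjusted p = 0.0638, 0.051 and 0.0777). Atf6b, its paralogue, averaged 54.7 ± 2.54 CPM in OFF and 68.5 ± 4.84 CPM in ON (SD, n = 3 each; -0.33, adjusted p = 0.0289 by edgeR). That call was lost without OFF replicate 2 or any 1 of the ON libraries (adjusted p = 0.0557 to 0.145), in the authors' log2 table (0.0878) and with a replicate block (0.0558). Rtcb, the ligase that joins cut Xbp1 mRNA, gave -0.32 (adjusted p = 0.0409), which did not pass without any 1 library other than OFF replicate 3 (0.0858 to 0.15). It also failed in 6 other settings, namely 3 other scalings or row sets, DESeq2, the authors' log2 table and a replicate block (0.0509 to 0.127). Creb3, another membrane-bound transcription factor, gave 0.56 (adjusted p = 0.0155 by edgeR), a call lost without ON replicate 2 or 3 (0.0947 and 0.0724). The proteases that cut ATF6, Mbtps1 and Mbtps2, gave 0.12 and -0.20, and Ddit3, the transcription factor CHOP, gave -0.28, with no call (adjusted p = 0.403, 0.354 and 0.0897 by edgeR). Ppp1r15b and Creb3l2 gave -0.07 and 0.39 (adjusted p = 0.693 and 0.365 by edgeR). When single libraries were dropped, 3 to 5 genes of the list were lower and 0 to 2 higher. The count was 3 lower without OFF replicate 2 or any 1 ON library, 1 higher without OFF replicate 2 or ON replicate 1 or 3, and 0 higher without ON replicate 2.

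**Figure D3:**
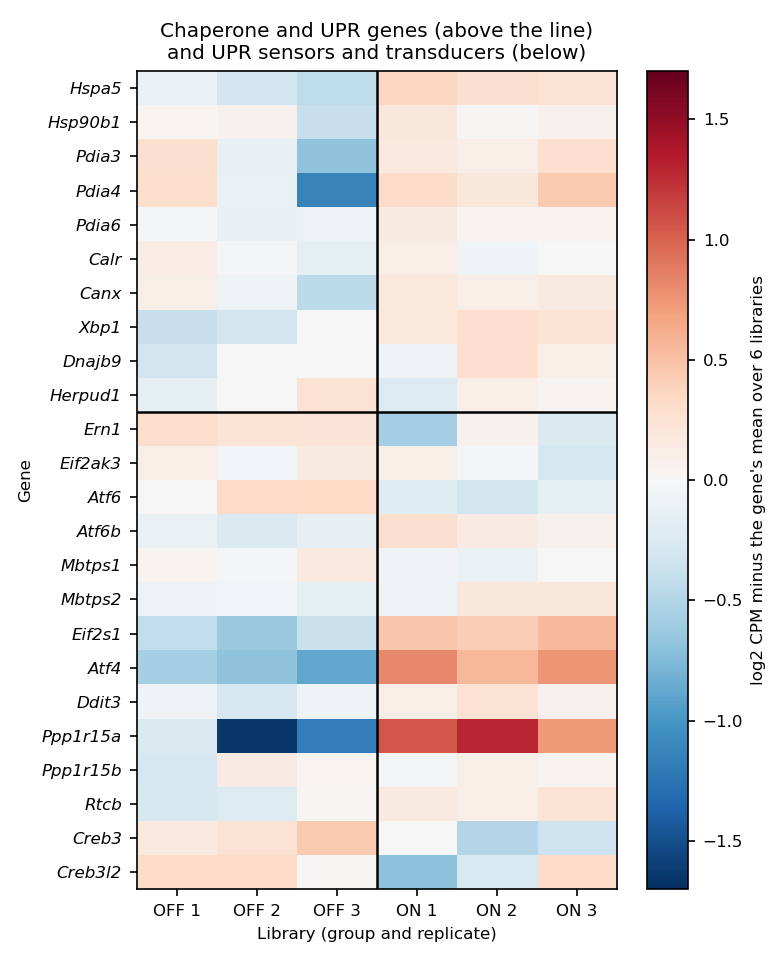
Log2 CPM of each gene minus its mean over the 6 libraries (red higher, blue lower), for the 10 chaperone and UPR genes above the line and the 14 UPR sensors and transducers below it; columns are OFF replicates 1 to 3 and ON replicates 1 to 3. Atf4, Ppp1r15a and Eif2s1 show the strongest contrast between groups, and Pdia4 is lowest in OFF replicate 3.

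Cochaperones and exchange factors of BiP and GRP94 were lower in 4 of 15 genes (26.7%) and higher in 1 (6.67%). The shares of all tested rows were 17.5% and 17.3%. Hyou1, the exchange factor that recharges BiP, stood at 96.5, 89.2 and 100.04 CPM in OFF, against 162, 173 and 156 CPM in ON. Its log2 fold change of -0.78 was larger in size than that of Hspa5 (adjusted p = 6.04e-05 by edgeR); the difference between the 2 genes was not tested. Manf, a BiP partner that is secreted on ER stress, gave -0.47 and Sdf2l1, which keeps BiP clients soluble, gave -0.39 (adjusted p = 0.00471 and 0.00925 by edgeR). The call of Sdf2l1 was lost without ON replicate 1 (0.0598). Sdf2, the paralogue of Sdf2l1, was higher (0.72, adjusted p = 0.00687 by edgeR).

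Other disulfide isomerases and oxidases had 2 of 16 genes lower and 1 higher, below the share of all rows in both directions. Pdia5 and Txndc5, 2 isomerases of low level here, gave -1.30 and -0.85, with means of 2.62 and 2.91 CPM in OFF and 6.46 and 5.26 CPM in ON (adjusted p = 0.00372 and 0.0209 by edgeR). The call of Txndc5 was lost without OFF replicate 1 or 2 or ON replicate 2 or 3 (adjusted p = 0.0576 to 0.0986). Tmx4, a membrane-bound thioredoxin, gave 0.30 (adjusted p = 0.0427), a call lost without any 1 library other than OFF replicate 3 (0.0644 to 0.174). It was also lost with DESeq2 (0.0531), in the authors' log2 table (0.0654), when rows of low count were kept (0.0858) and with a replicate block (0.0808). The list had 4 genes lower without OFF replicate 3 and 1 without OFF replicate 1 or 2 or ON replicate 2 or 3.

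Glycoprotein folding and mannose trimming had 2 of 13 tested genes lower (15.4%) and none higher, beside 17.5% and 17.3% of all tested rows. Mogs, the glucosidase that starts glucose trimming, gave -0.85, and Lman1, a cargo receptor for export from the ER, gave -0.65 (adjusted p = 8.19e-05 and 2.67e-04 by edgeR). ER-associated degradation had 4 of 18 tested genes lower (22.2%), near the share of all tested rows, and 1 higher (5.56%). Ube2j2, a ubiquitin-conjugating enzyme of the ER membrane, gave -0.50, Selenos, which recruits the ATPase VCP, gave -0.35, and Aup1 gave -0.35 (adjusted p = 0.00648, 0.0206 and 0.0332 by edgeR). These 3 calls did not hold throughout, and the list had 2 genes lower without OFF replicate 2 or ON replicate 1, 1 without ON replicate 3 and 0 without ON replicate 2. It had 0 genes lower in the authors' log2 table, and 2 with upper quartile scaling or a replicate block.

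New proteins enter the ER through the translocon. Of 22 tested genes of translocation and signal peptide cleavage, 9 were lower (40.9%) and none higher, beside 17.5% of all rows lower. Sec61a1, the pore of the translocon, averaged 119 ± 13.7 CPM in OFF and 181 ± 9.27 CPM in ON (SD, n = 3 each; -0.61, adjusted p = 7.45e-04 by edgeR). Ssr1, a subunit of the translocon-associated complex, gave -0.57, and Spcs2, of the signal peptidase, gave -0.40 (adjusted p = 0.00209 and 0.00659 by edgeR). Spcs2 did not pass in the authors' log2 table (adjusted p = 0.0508 by limma). The count depended on single libraries, with 4 without ON replicate 1 or 2, 5 without OFF replicate 2 or ON replicate 3, and 12 without OFF replicate 3. In the authors' log2 table it was 4. The oligosaccharyltransferase, which attaches N-glycans, had 4 of 12 genes lower (33.3%) and none higher, beside 17.5% and 17.3% of all rows. They included the catalytic subunit gene Stt3a (-0.72, adjusted p = 7.59e-04), Rpn1 (-0.53, adjusted p = 7.96e-04) and Ostc (-0.48, adjusted p = 0.00213 by edgeR).

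Of 13 tested genes of ER calcium handling 3 were higher (23.1%) and 1 was lower (7.69%), with the share of higher genes near the 17.3% of all rows. Atp2a3, a calcium pump of blood cells, averaged 124 ± 13.99 CPM in OFF and 63.7 ± 5.94 CPM in ON (SD, n = 3 each; 0.97, adjusted p = 3.03e-05 by edgeR). Stim1, the sensor of stored calcium, gave 0.52 (adjusted p = 0.00257). Atp2a2, the pump found in most cells, was lower (-0.37, adjusted p = 0.0178 by edgeR), a call lost without OFF replicate 2 or ON replicate 1 or 2 (adjusted p = 0.051 to 0.109).

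Chaperones of other compartments are given for comparison. Of 16 tested cytosolic heat shock chaperones 14 were lower (87.5%), and of 9 mitochondrial chaperones and proteases 7 were lower (77.8%), with none higher in either list. Their median log2 fold changes were -0.78 and -0.92, beside -0.24 for the 10 ER genes. Among the genes of the Hsp70 superfamily with Hspa symbols in these lists, all of which are given here whatever their p, log2 fold changes were -2.02 in Hspa1b, -1.30 in Hspa1a, -1.19 in Hspa9, -0.78 in both Hspa8 and Hspa4, and 0.10 in Hspa4l, beside -0.58 in Hspa5. Hspa4l was not called (adjusted p = 0.507), and the others were (adjusted p = 2.02e-07 to 0.00818 by edgeR). Hspa1a and Hspa1b are uncertain, since they are near-identical copies that can share reads. The difference between the lists was not tested. Over the 123 tested genes of the ER lists outside the 10, 31 were called lower (25.2%) and 8 higher (6.5%), and their median log2 fold change was -0.15. Of all tested rows 17.5% were called lower and 17.3% higher. The sum of both calls in the ER lists was 25 without OFF replicate 2, ON replicate 1 or ON replicate 3, and 22 without ON replicate 2.

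**Figure D4:**
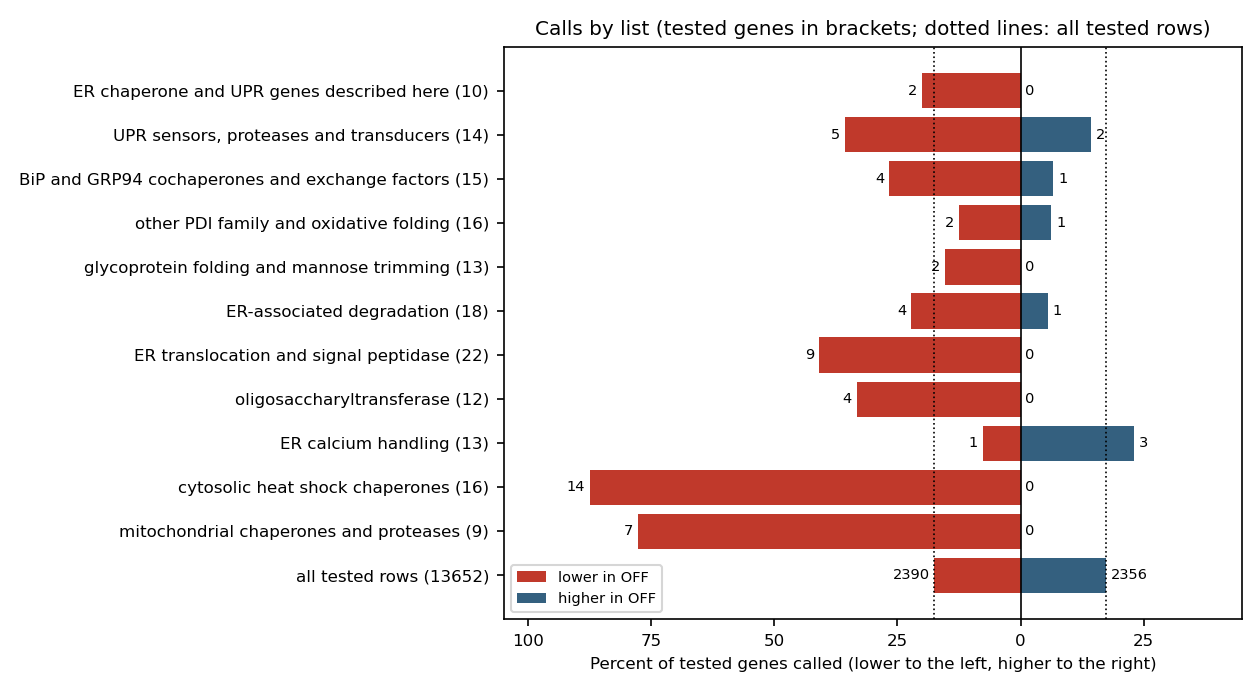
Percent of tested genes called lower in OFF (red, to the left) and higher in OFF (blue, to the right) in each list, with the number of genes at the end of each bar and the number tested in brackets; dotted lines mark the shares of all tested rows. The 10 genes described here lie close to the lower dotted line at 20%, and the cytosolic and mitochondrial chaperones lie far beyond it.

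Set beside the promoter elements shown above, Hspa5 was the 1 gene called among 16 tested genes with an exact ER stress element upstream, where 18.4% of the 8726 tested genes with a promoter in the table were called lower and 19.4% higher. The median log2 fold change of the 16 was -0.16. Of the genes with an element, Canx, Hsp90b1, Pdia6 and Calr gave -0.27, -0.17, -0.17 and -0.03. The tested genes of the other ER lists with an element were Creld2, Dnajc3 and Syvn1. Creld2, a chaperone-like gene, gave -0.31, Dnajc3, a BiP cochaperone, gave 0.09 and Syvn1 gave -0.14 (adjusted p = 0.0751, 0.513 and 0.495 by edgeR). Xbp1, the other gene called lower, had no exact element in its window.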

How the data were processed

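RNA from sorted leukaemic cells of 6 mice was sequenced with a 3′ mRNA kit (Lexogen QuantSeq), per the labels' protocols, so a count reflects reads near a gene's 3′ end. The submitters' processing notes name, among other tools, HISAT2 2.0.4, featureCounts, Subread 1.6.3, cutadapt 1.9.1 and limma 3.42.2, with mm10. No annotation or strand setting is named there. The deposited table held raw counts in 54838 rows; 1105 rows with no name (0.145% to 0.172% of counts) were left out. The authors' other table, of log2 expression in 12287 genes, served as an alternative only.

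Counts were analysed with R 4.3.3 and edgeR 4.0.16: filterByExpr (minimum count 10, minimum total 15), TMM, robust dispersions, and glmQLFit with glmQLFTest over all rows, Benjamini-Hochberg adjusted at 0.05. Log2 fold changes are OFF minus ON, SEs come from the size and its F statistic, and intervals are at 95%. The fit was tested on simulated data. Replicates are separate mice given 1 cell line, so p-values measure the spread between mice. Alternatives were other scalings, DESeq2 1.42.0, filters, the log2 table with limma 3.58.1, each library left out, and a replicate block. A count of 0 allows up to 3 counts, at most 0.371 CPM; PCR reads are not independent molecules, so this covers counting error only. Gene positions and overlaps are from GENCODE M21, 3′ ends were compared with blastn 2.17.0, and promoters are from RefSeq. The members and lists were chosen with earlier results of these data known; named from each list were the 3 genes lower and 2 higher with the smallest p, and all UPR sensors, except 1 gene that is not reported here. Creld2, Dnajc3, Syvn1, the overlapping rows and 4 further Hspa genes were added after values were seen.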

Additional observations from a re-analysis of the deposited data

How the results depend on the processing

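Hspa5 and Xbp1 were lower under all 15 alternatives, and no gene of the 10 was higher under any. The count of lower genes among the 10 was 2 to 4 on leaving out each library, with 4 without OFF replicate 1, where Pdia3 and Canx passed, and 3 with no filter on low counts. Near-zero values changed sign: Calr gave 0.0008 with upper quartile scaling, 0.044 in the authors' log2 table and -0.108 to 0.0386 on leaving out each library. On leaving out each library Herpud1 gave -0.0531 to 0.147 and Ppp1r15b -0.161 to 0.0446. None of these was called, and the cause was not tested. Of the 123 tested genes of the ER lists, 39 were called, 22 to 49 on leaving out each library, and 25 in the authors' log2 table, where 122 were tested. For OFF against ON, all tested rows gave 4746 calls, and 3294 to 5444 on leaving out each library. Lower calls were 2390, and 1679 to 2740 on leaving out each library. Higher calls were 2356, and 1615 to 2704. Changes in the counts of single lists on leaving out a library are to be read beside these changes over all rows. Scalings moved the median of all rows by at most 0.03. Samples with the same replicate number did not deviate together (r = 0.0348, -0.0759 and -0.0504 for numbers 1 to 3). With 3 mice per group this cannot decide whether the numbers pair the mice, and the labels name no pairing. With a replicate block 4404 rows, 2 of the 10 genes and 32 of the ER list genes were called. Depth limits genes of few counts, such as Dnajb9 (96 to 142 per library), Txndc5 (19 to 52), Pdia5 (18 to 82) and Ppp1r15a (17 to 128).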

Other observations

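By the root mean square difference of centred log2 CPM over the 6 libraries, the rows most like Hspa5 among 8054 with a mean of at least 10 CPM were Smndc1, a splicing factor (0.0351), Psmc6, a proteasome ATPase (0.0435), and Ahsa1, an activator of cytosolic Hsp90 (0.0467). With 6 libraries in 2 groups, many rows can lie this close, and likeness here says nothing of shared control.

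The UPR element TGACGTGG was found in 185 of the 32851 promoter windows (0.563%) and in none of the 10 genes; among 79 tested genes that held it, 18 were lower (22.8%) and 12 higher (15.2%) in OFF, beside 18.4% and 19.4% of the 8726 tested genes with a promoter. The C/EBP-ATF element TTGCATCA was found in 260 windows (0.791%), Herpud1 among them; of 65 tested genes that held it, 17 were lower and 17 higher (26.2% each). Matches on both strands were counted, and they are not shown to be bound in these cells.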
